A study of Oryza sativa Indica Group and Oryza sativa Japonica Group with 12 samples.

Results

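H3K27me3-associated chromatin loops were read in rice seedlings of the osemf2b line and of its background variety Dongjin, and the regions described here are those that were looped in both. A region is a run of overlapping loop anchors from the 2 lists. A region counted as a member when its loops held 20 or more paired-end tags (PETs) in osemf2b and 20 or more in Dongjin. There were 1704 members among 10491 regions (16.2%). They were 97.6% of the 1746 regions that reached 20 PETs in osemf2b, and 21.8% of the 7815 that reached 20 PETs in Dongjin. The other 6111 Dongjin regions had fewer than 20 osemf2b PETs, and 3225 of them had no listed osemf2b loop. Members were thus chosen by their PETs in both lists, so PETs, and every other measure of osemf2b against Dongjin, are given as a description without a test.

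The osemf2b group and the Dongjin group each had 2 labelled replicates of seedling tissue, pooled by the authors into 1 loop list per group. Both carry the Dongjin cultivar label and were precipitated with the same H3K27me3 antibody. All 4 samples were cross-linked with 1% formaldehyde for 10 min and with 1.5 mM of the cross-linker EGS for 30 min. Reads were 150 bp long. The labels name the osemf2b line by its title alone and give neither its allele nor how it was made. The locus of the targeted gene was not analysed here, since no annotation of the lists' genome build was used. In the method, ChIA-PET, cross-linked chromatin that carries a mark is enriched, DNA ends held close together are ligated, and both ends of each ligation product are read as a PET. With 1 pooled list per group there was no spread between replicates to hold a difference against. Coordinates are those of the deposited lists, whose genome build is not stated in the labels or lists. The intervals below are 95% intervals that cover counting error only.

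H3K27me3 is the repressive histone mark written by Polycomb repressive complex 2, which keeps developmental genes silent in plants and animals. OsEMF2b is a rice homologue of the Arabidopsis EMF2 protein, a subunit of that complex related to Su(z)12 of Drosophila, and rice osemf2b mutants are known for altered flowering and floral organs. Chromatin that carries H3K27me3 often forms broad domains, and such domains can contact each other over long distances within and between chromosomes.

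The osemf2b list held 15913 loops with 282020 PETs, against 94432 loops with 818847 PETs in Dongjin. The total number of tags that the deposited p-values imply differed less, at 31.2 M in osemf2b and 39.4 M in Dongjin. Nearly the whole osemf2b list touched the members: 95.7% of its loops (95.4 to 96.0) and 99.4% of its PETs had an anchor in a member, compared with 65.3% of the loops (65.0 to 65.6) and 83.1% of the PETs of the Dongjin list. The rule largely sets this contrast, so nothing is read from it. Only 42 regions of at least 20 osemf2b PETs were not members, against 6111 regions of at least 20 Dongjin PETs. A loop that is not in a list did not reach the authors' cut-offs there, which is not proof that the contact did not exist.

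A member held between 20 and 17716 PETs in osemf2b, with a median of 65 (60 to 72), and between 20 and 15904 in Dongjin, with a median of 340.5 (322 to 360). The osemf2b threshold was the one that bound. There were 223 members with 20 to 24 osemf2b PETs but 8 with 20 to 24 Dongjin PETs, and another 339 regions lay just outside with 15 to 19 osemf2b PETs, against 11 with 15 to 19 Dongjin PETs. Those just inside the osemf2b threshold had a median width of 6.54 kb and 158 Dongjin PETs. Those just outside had 5.28 kb and 130 Dongjin PETs, so the edge of the set is gradual.

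**Figure D1:**
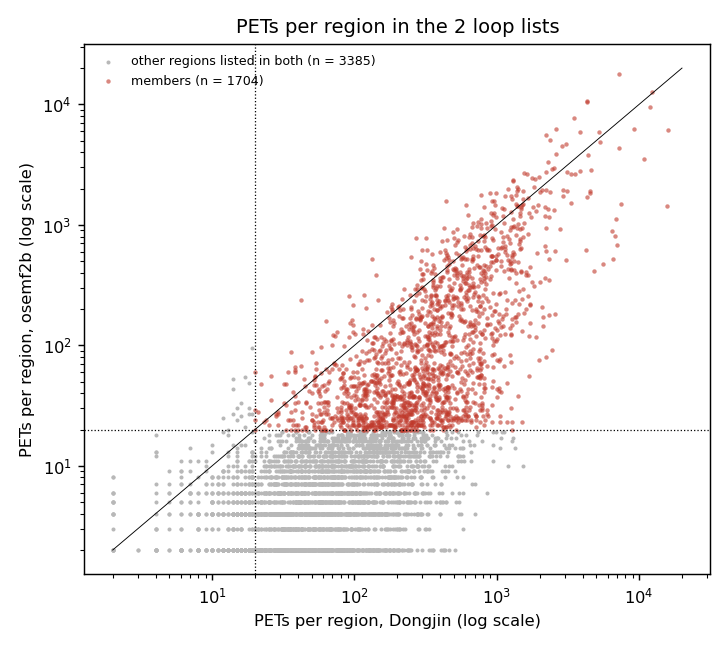
PETs per region in osemf2b (vertical axis, log scale) against Dongjin (horizontal axis, log scale) for the 5089 regions that had loops in each list. Red points are the 1704 members, grey points the other 3385, dotted lines mark 20 PETs, and the solid line marks equal PETs; most members lie to the right of it, and the leading ones lie on both sides.

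Members lay on all 12 chromosomes and often close together. Chromosome 12 had the highest share of members among its regions of 20 or more Dongjin PETs, 159 of 586 or 27.1% (23.6 to 30.9). Chromosomes 8 and 11 followed with 25.4% and 24.6%, and chromosome 2 had the lowest share, 130 of 768 or 16.9% (14.3 to 19.8). The interval of chromosome 12 overlapped those of chromosomes 8 and 11 but not that of chromosome 2. These chromosomes were picked by rank and regions of a chromosome can share loops, so nothing is read from that gap. Of all members, 611 (35.9%) had another member within 10 kb, and the median gap to the nearest member was 18.6 kb. The densest run, with gaps of at most 20 kb, was 936040 to 1156298 on chromosome 6, where 10 members held 4396 PETs in osemf2b and 6873 in Dongjin. Members within 3 Mb of the first base or of the last listed anchor of a chromosome made up 22.7% (20.7 to 24.8), beside 20.6% (19.6 to 21.7) of the other Dongjin regions, and these intervals overlap.

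The distribution of PETs over chromosomes differed between the lists. Members on chromosome 12 held 98167 PETs in osemf2b and 86854 in Dongjin, which were 18.6% of the PETs of all members in osemf2b and 8.42% in Dongjin. Members on chromosome 11 stood the other way, with 38590 PETs in osemf2b (7.33%) and 161158 in Dongjin (15.6%). The median log2 ratio of PETs (osemf2b over Dongjin, scaled on the total PETs of each list) was 0.37 over the members of chromosome 12, -0.74 on chromosome 11 and -0.91 on chromosome 3. Members of 1 chromosome share loops, so these values are not independent measurements.

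Members were wide. Their median width was 10.6 kb (10.2 to 11.3), with a range of 0.503 to 158 kb, against 2.74 kb (2.68 to 2.81) for the other regions of 20 or more Dongjin PETs, which reached 32.5 kb. The 1704 members covered 25.1 Mb in all and the 6111 others 21.7 Mb. Among the regions of 20 or more Dongjin PETs, all 45 over 50 kb were members, as were 315 of the 330 between 20 and 50 kb (95.5%) and 553 of the 767 between 10 and 20 kb (72.1%). Of the 2911 regions between 2 and 5 kb, 226 were members (7.76%), and of the 2183 up to 2 kb, 57 (2.61%). Wide regions also hold more Dongjin PETs, so the classes were taken again among regions of similar PETs. Among regions with at least 200 and under 500 Dongjin PETs, members were 30.7% (22.4 to 40.03) of those up to 5 kb, 45.3% (41.1 to 49.6) of those of 5 to 10 kb, 69.5% (64.7 to 74.0) of those of 10 to 20 kb and 90.6% (79.3 to 96.9) of those over 20 kb. Among regions with at least 100 and under 200 Dongjin PETs the same classes up to 20 kb gave 15.3%, 26.9% and 41.5%. The width of a region includes any osemf2b anchors, which membership requires, so the length of the Dongjin anchors alone was also used. By that length the median was 10.2 kb for members and 2.73 kb for the others. Among regions with at least 200 and under 500 Dongjin PETs, members were then 34.2% (25.8 to 43.4) of those up to 5 kb, 46.9% (42.7 to 51.1) of those of 5 to 10 kb, 69.3% (64.5 to 73.8) of those of 10 to 20 kb and 85.3% (68.9 to 95.05) of those over 20 kb.

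**Figure D2:**
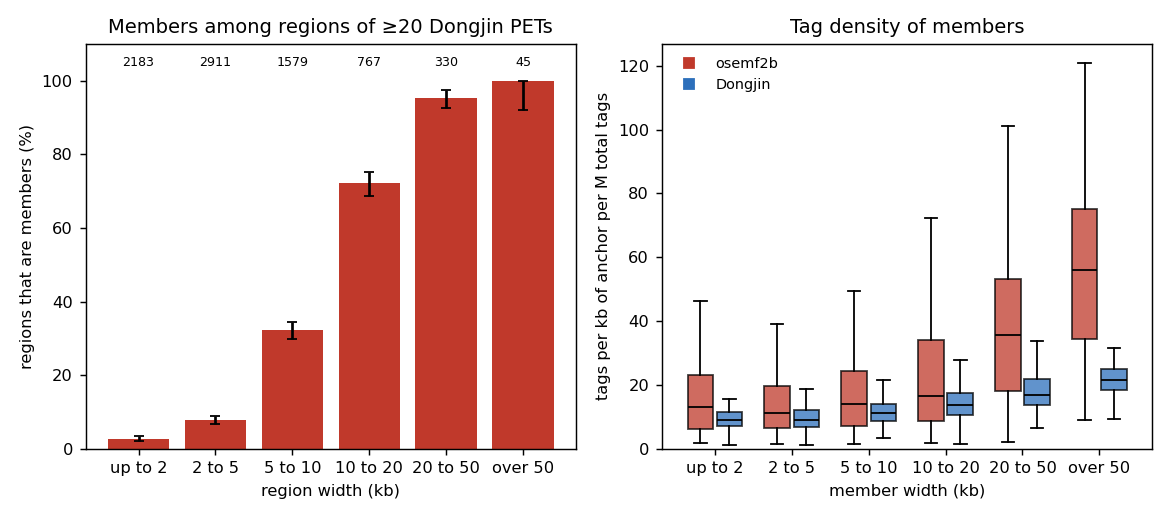
Left, percent of regions of 20 or more Dongjin PETs that are members (vertical axis) by region width in kb, with 95% exact binomial intervals and the number of regions above each bar; the share is 2.61% up to 2 kb and 95.5% between 20 and 50 kb. Right, tags per kb of anchor per M total tags in members by width in kb, in osemf2b (red) and Dongjin (blue); boxes span the quartiles with the median as a line, whiskers reach 1.5 times the box or the last value, and outliers are not drawn.

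Tags at the anchors, which measure enrichment whether or not the ends were joined to another region, had overlapping median intervals per bp in the 2 lists but a wider spread in osemf2b. Members had a median of 0.534 tags per bp of anchor in osemf2b, with quartiles of 0.264 and 1.07, against 0.503 in Dongjin with quartiles of 0.374 and 0.676. Scaled on total tags of the list this came to 17.1 tags per kb per M total tags in osemf2b (16.1 to 18.2) and 12.8 in Dongjin (12.5 to 13.02). The highest member reached 120.8 tags per kb per M in osemf2b and 49.5 in Dongjin. Density went with width. The 45 members of 50 kb or more had a median of 56.0 tags per kb per M in osemf2b and 21.6 in Dongjin, while the 283 members under 5 kb had 11.4 in osemf2b and 9.07 in Dongjin. Scaled on total tags, 595 members (34.9%) had at least 2-fold more tags in osemf2b and 527 (30.9%) at least 2-fold fewer. Across all 5086 regions that had tags in each list these shares were 14.0% and 67.0%. Nothing is read from that contrast, because the rule asked for PETs in both lists.

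The anchors within members were cut differently in the 2 lists. In 574 members a single Dongjin anchor was matched by 2 or more separate osemf2b anchors, up to 9 in 1 member. In 84 members the reverse held, with a single osemf2b anchor across 2 or more Dongjin anchors, and 1027 members had 1 anchor in each list. These counts are given for members alone, so they are not read as a trait of members. The median log2 ratio of PETs was -1.24 (-1.37 to -1.14) where the Dongjin anchor was divided, 1.01 (0.80 to 1.21) where Dongjin anchors were joined and 0.27 (0.14 to 0.36) where each list had 1 anchor. The divided members had a median of 9.74 tags per kb per M in osemf2b and 12.5 in Dongjin. The joined members had 47.6 in osemf2b and 17.3 in Dongjin. The rule used the PETs of both lists, so nothing is read from the PET ratios of these classes. Summed anchor length was at most 1 in 2 of the Dongjin length in 463 members (27.2%), beside 50.4% of all regions with tags in both lists. It was at least 2 times the Dongjin length in 14 members (0.822%, beside 0.885%).

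PETs of the members went both ways around the totals of the lists. A member was called higher or lower when its scaled ratio was at least 2-fold with an interval that excluded 1. By that rule 357 members (21.0%) were higher in osemf2b and 570 (33.5%) were lower, beside 5.19% higher and 74.0% lower over the 8032 regions whose PETs in osemf2b and Dongjin summed to 20 or more. The rule that chose the members sets this gap, so nothing is read from it. The split also rested on the scaling: on total tags 58 members were higher and 1024 lower, and without scaling 27 were higher and 1164 lower. The median log2 ratio over members was -0.22 (-0.34 to -0.12).

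PETs were scaled on the total PETs and tags on the total tags of each list, so their directions are taken from different baselines. By these scales tags differed in the same direction as PETs for most of the called members. Of the 357 members called higher, 326 (91.3%) also had at least 2-fold more tags in osemf2b, and 3 had at least 2-fold fewer. Of the 570 called lower, 393 (68.9%) had at least 2-fold fewer tags and 13 had at least 2-fold more. Over all 5086 regions with tags in each list, 14.0% had at least 2-fold more tags in osemf2b and 67.0% at least 2-fold fewer. The share of lower members with fewer tags, 68.9%, is near that 67.0%, so nothing is read from it. Higher members had a median of 44.1 tags per kb per M in osemf2b and 14.9 in Dongjin, and lower members had 8.61 in osemf2b and 12.5 in Dongjin. In Dongjin the PETs of both classes had overlapping intervals, with medians of 398 (344 to 463) for the higher and 413.5 (385 to 439) for the lower members. Members with a divided Dongjin anchor made up 6.16% of the higher class (3.90 to 9.18) and 59.5% of the lower class (55.3 to 63.5). The part of tag enrichment in the PET ratios was not tested. By width, 24 of the 45 members of 50 kb or more were higher and 3 were lower, while among the 1061 members of 5 to 20 kb 163 were higher and 444 lower. Over all compared regions of any width, 5.19% were higher and 74.0% lower. Among regions of 20 or more Dongjin PETs, all 45 over 50 kb were members, but 508 of 1579 of 5 to 10 kb and 553 of 767 of 10 to 20 kb. The rule thus filtered the width classes differently, and nothing is read from this contrast.

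The member with the most osemf2b PETs was a 150.5 kb domain on chromosome 12 at 19276316 to 19426772. It held 17716 PETs in osemf2b and 7170 in Dongjin, a scaled ratio of 7.17 (6.98 to 7.37). Its tags numbered 365106 in osemf2b (2.43 per bp) and 109751 in Dongjin (0.805 per bp). Another 3 of the leading 6 were domains on the same chromosome. The domain at 25104863 to 25178169 held 10588 PETs in osemf2b and 4270 in Dongjin, and its neighbour at 25189471 to 25241995 held 10494 in osemf2b and 4331 in Dongjin. The last of these, 23978573 to 24031329, held 7632 in osemf2b and 3507 in Dongjin. Scaled ratios of these 3 domains were 7.20 (6.95 to 7.46), 7.04 (6.79 to 7.29) and 6.32 (6.07 to 6.58), and scaled tag ratios were 4.22, 3.83 and 3.98. The remaining leading members lay near the start of chromosome 7. The domain at 2647171 to 2736952 held 12697 PETs in osemf2b and 12309 in Dongjin, and that at 1860936 to 1969357 held 9560 in osemf2b and 11871 in Dongjin. Their scaled ratios were 3.00 (2.92 to 3.07) and 2.34 (2.28 to 2.40). The 100 members with the most PETs held 53.4% of the PETs summed over members in osemf2b and 34.4% in Dongjin. The rule used these PETs, and the osemf2b list held fewer of them, so nothing is read from this contrast.

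The 6 members with the highest ratios were not among those with the most PETs. A pair of neighbours on chromosome 3 led. At 1267586 to 1279199 there were 237 PETs in osemf2b and 42 in Dongjin, a ratio of 16.4 (11.8 to 23.3), and the anchor was 11.6 kb long in osemf2b and 2.41 kb in Dongjin. At 1291967 to 1312830 there were 524 PETs in osemf2b and 132 in Dongjin, a ratio of 11.5 (9.51 to 14.1), where 1 osemf2b anchor spanned 2 Dongjin anchors. Tags at the first of these numbered 10268 in osemf2b and 338 in Dongjin, and at the second 25475 in osemf2b and 2558 in Dongjin. Chromosome 4 at 12050404 to 12076152 had 1583 PETs in osemf2b and 442 in Dongjin, a ratio of 10.4 (9.35 to 11.6), with 90.5% of its osemf2b PETs and 54.8% of its Dongjin PETs leading to other chromosomes. Chromosome 5 at 18943033 to 18981518 had 779 PETs in osemf2b and 269 in Dongjin. The other 2 were narrow: 7521330 to 7521832 on chromosome 6 had 60 PETs in osemf2b and 20 in Dongjin, and 13510033 to 13510827 on chromosome 12 had 258 in osemf2b and 91 in Dongjin.

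At the other end stood members that passed the osemf2b threshold narrowly but were strong in Dongjin. On chromosome 1, 6988140 to 7017925 had 23 PETs in osemf2b and 1504 in Dongjin, and 8122067 to 8155813 had 20 in osemf2b and 1277 in Dongjin. Also on that chromosome, 6332378 to 6348480 had 23 in osemf2b and 1180 in Dongjin. Chromosome 9 at 10361191 to 10388128 had 23 PETs in osemf2b and 1281 in Dongjin, chromosome 6 at 30957141 to 30977346 had 23 in osemf2b and 1055 in Dongjin, and chromosome 11 at 18408885 to 18416773 had 30 in osemf2b and 1264 in Dongjin. Log2 ratios lay between -4.49 and -3.86. All 6 had 1 anchor in Dongjin. In osemf2b the first 5 of them were divided into 2 to 5 anchors, and summed anchor length in all 6 was shorter in osemf2b. The member at 8122067 was covered over 2.20 kb in osemf2b and 33.7 kb in Dongjin, and its tags numbered 226 in osemf2b and 15409 in Dongjin.

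Partners were compared next. Regions joined by at least 1 listed loop are a pair, and a pair is called shared when it was listed in both. Members had a median of 9 partner regions in osemf2b and 38 in Dongjin, and no member had more partners in osemf2b than in Dongjin. They formed 13856 pairs in osemf2b and 60219 in Dongjin, of which 3684 were shared. The shared pairs were 26.6% of the osemf2b pairs (25.9 to 27.3) and 6.12% of the Dongjin pairs (5.93 to 6.31), but they held 69.6% of the osemf2b PETs and 44.4% of the Dongjin PETs of these pairs. Between 2 members, 2429 pairs were shared, which were 39.1% of the osemf2b pairs and 21.9% of the Dongjin pairs. There were 113 members without any shared partner and 34 without a partner listed in osemf2b alone. Over members, the median share of Dongjin partners found again was 7.69%, and the highest was 66.7%. Allowing a pair to match a pair of regions within 20 kb of both gave a share of Dongjin pairs found again of 14.8%, and counting Dongjin loops of at least 6 PETs alone gave 18.5%.

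Strong and short contacts were shared most often. Within a chromosome, the share of Dongjin pairs also listed in osemf2b was 0.869% (0.644 to 1.15) for pairs of 2 Dongjin PETs, 14.3% (13.3 to 15.3) for 10 to 19, 54.6% (51.6 to 57.6) for 50 to 99 and 81.4% (78.8 to 83.9) for 100 or more. By distance it was 30.8% (28.2 to 33.5) up to 20 kb, 26.8% (25.7 to 28.0) between 20 and 100 kb, 10.1% (9.64 to 10.6) between 100 kb and 1 Mb, 2.07% (1.68 to 2.51) between 1 and 5 Mb and 0.529% (0.314 to 0.834) beyond 5 Mb. Between chromosomes 66 of 29643 Dongjin pairs were shared, or 0.223% (0.172 to 0.283). Seen from osemf2b, the share of its pairs that Dongjin did not list was 8.82% up to 20 kb, 6.42% between 20 and 100 kb, 17.4% between 100 kb and 1 Mb, 79.8% between 1 and 5 Mb and 97.4% beyond 5 Mb. In all, 70.1% of its pairs within a chromosome and 0.759% of those between chromosomes were shared.

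**Figure D3:**
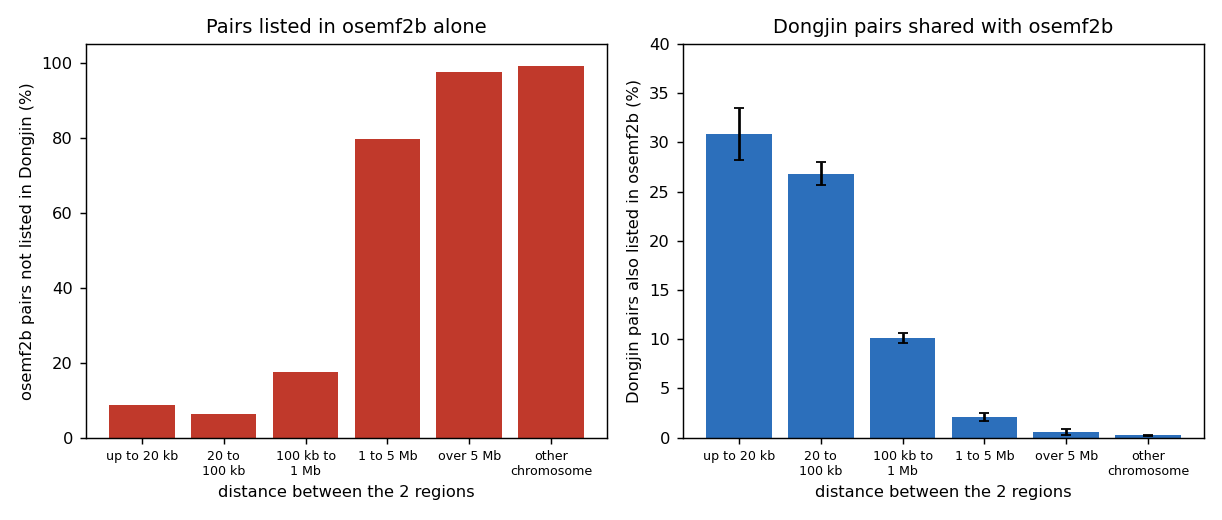
Pairs of a member with another region, by the distance between them and, at the right of each panel, on another chromosome. Left, percent of osemf2b pairs not listed in Dongjin; right, percent of Dongjin pairs also listed in osemf2b, with 95% exact binomial intervals. Up to 20 kb 30.8% of the Dongjin pairs were listed in osemf2b, and between chromosomes 0.223%.

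The median span of shared pairs within a chromosome was 87.8 kb (83.6 to 92.2), pairs listed in Dongjin alone 376 kb (366 to 387), and pairs listed in osemf2b alone 3802 kb (3303 to 4245). The longer span of the osemf2b-alone pairs depended on how regions were drawn. In fixed bins of 10 kb it was 370 kb, the same as for the Dongjin-alone pairs. Over all pairs of members on 1 chromosome, shared or not, the median was 152 kb in osemf2b and 315 kb in Dongjin. Weighted by PETs the order turned, to 146.6 kb in osemf2b and 103.6 kb in Dongjin. Pairs over 1 Mb held 20.1% of these PETs in osemf2b and 11.3% in Dongjin, and pairs over 5 Mb held 6.91% in osemf2b and 3.58% in Dongjin. Among shared pairs, the median log2 ratio of PETs was -0.17 (-0.27 to -0.05) up to 100 kb. It was 0.54 (0.46 to 0.65) between 100 kb and 1 Mb, and 2.19 (1.05 to 2.92) over 1 Mb. Over 1 Mb, 89 of 116 pairs had more scaled PETs in osemf2b. A shared pair had to be listed in both lists, and regions with more tags need more PETs to be listed. Pairs can also share a domain, so nothing is read from this gradient.

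PETs between 2 regions also depend on the tags at each, and the deposited p-values take this into account. They compare the PETs of a loop with a chance number, tags at one anchor times tags at the other over the total tags of the list. PETs over that number set a pair against its tags, here summed over the anchors of a region. The measure takes no account of the total PETs of the lists, which differed more than their total tags. Its level is thus not on the same scale in osemf2b and Dongjin. For shared pairs of members within a chromosome the median was 9.76 in osemf2b (9.08 to 10.7) and 29.3 in Dongjin (26.4 to 31.8), and 2133 of 2396 pairs (89.0%) were lower in osemf2b. The order held at each distance. Up to 100 kb the medians were 24.04 in osemf2b and 78.6 in Dongjin, between 100 kb and 1 Mb 3.98 in osemf2b and 10.98 in Dongjin, and over 1 Mb 1.41 in osemf2b and 2.62 in Dongjin. Over 1 Mb, 79 of these 101 pairs had fewer PETs over the chance number in osemf2b. How far list totals, tag levels and the cut-offs of the lists set this order was not tested.

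**Figure D4:**
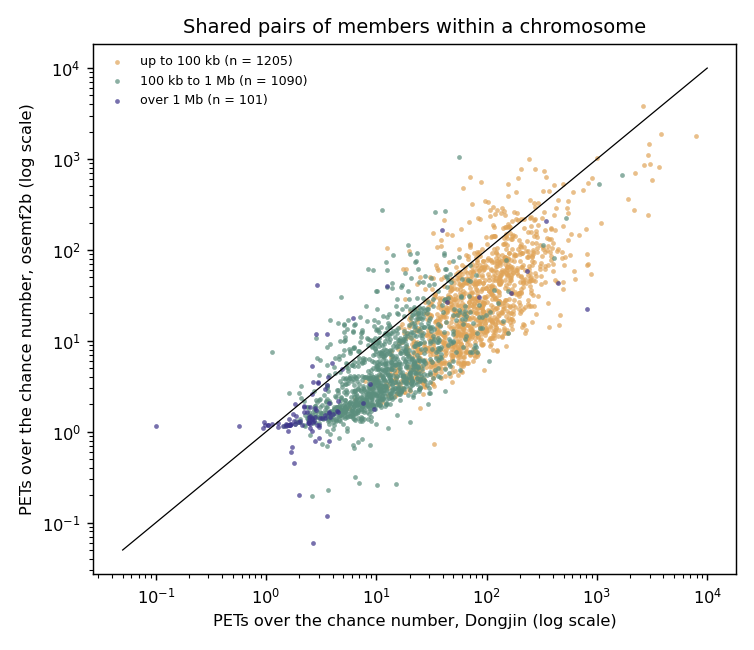
PETs over the chance number of the deposited p-values in osemf2b (vertical axis, log scale) against Dongjin (horizontal axis, log scale) for the 2396 shared pairs of members within a chromosome, coloured by span. The line marks equal values; 2133 pairs lie below it, with medians of 9.76 in osemf2b and 29.3 in Dongjin.

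The shared pairs with the most osemf2b PETs joined the wide domains. On chromosome 12 the neighbours at 25104863 and 25189471 were joined by 2746 PETs in osemf2b and 1549 in Dongjin, which was 3.50 times the chance number in osemf2b and 25.2 times in Dongjin. The 19276316 domain was joined over 5.79 Mb to 25104863 by 2265 PETs in osemf2b and 218 in Dongjin, and over 5.86 Mb to 25189471 by 2119 in osemf2b and 213 in Dongjin. Its partner 23978573 lay 4.65 Mb away and had 1739 PETs in osemf2b and 112 in Dongjin. Against the chance number these 3 contacts came to 1.19, 1.20 and 1.09 in osemf2b and to 1.61, 1.54 and 0.932 in Dongjin. The first 2 were thus lower in osemf2b by this measure and the last was higher, while all 3 had more PETs there. On chromosome 7 the 1860936 and 2647171 domains, 777 kb apart, were joined by 1935 PETs in osemf2b and 1001 in Dongjin. On chromosome 5, 6371595 to 6492846 and 6546027 to 6591540 were joined by 1915 PETs in osemf2b and 1518 in Dongjin.

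Pairs listed in osemf2b alone numbered 10172 (9975 to 10372), and 8631 of them joined different chromosomes. Most were weak, with a median of 2 PETs. Their partners were seldom regions that Dongjin lacked: seen from the member, 54.2% were other members, which took 87.8% of the PETs, and 4.25% were regions with no listed Dongjin loop. In all, 1654 members had at least 1 such partner on another chromosome. Interchromosomal contacts held 24.1% of the PETs summed over members in osemf2b and 12.5% in Dongjin, with a loop between 2 members counted at each. There were 107 interchromosomal pairs of 100 or more PETs in osemf2b and 3 in Dongjin. All 107 were between members, and 1 of the 3. The rule largely sets this, because only 42 regions of at least 20 osemf2b PETs were not members.

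The strongest pairs of members listed in osemf2b alone joined wide domains. The 19276316 domain of chromosome 12 was joined to 2691766 to 2744912 on chromosome 10 by 1586 PETs, to the chromosome 4 member at 12050404 by 766, and to 25337708 to 25374459 on its own chromosome by 1253. Chromosome 12 at 25189471 and chromosome 3 at 6013719 to 6077120 had 1266 PETs, chromosome 5 at 18219309 to 18313973 and chromosome 6 at 24421461 to 24490898 had 1223, and the same chromosome 5 domain and chromosome 2 at 12085028 to 12141400 had 693. All 6 lay close to the chance number, at 1.09 to 1.15 times it. The tags of the first pair, summed over anchors, gave a chance number of 1456 PETs in osemf2b and 93.9 in Dongjin. By those summed tags at least 121 Dongjin PETs would have been needed for a p-value as low as the highest one listed. At the osemf2b ratio to chance that pair would have had 102 PETs in Dongjin, below that limit.

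The same was worked out for every pair of members that was listed in 1 list alone. The limit uses tags summed over all anchors of a region, so a pair of regions with several anchors can be listed below it. Of the 3282 interchromosomal pairs listed in osemf2b alone, 1366 (41.6%, 39.9 to 43.3) would have reached the listing limit of Dongjin at the same ratio to chance. None of the 100 with the most PETs would have reached it. These 100 were picked by rank and pairs can share a domain, so no interval is set on that share. At the same share of total PETs in place of the same ratio to chance, 2461 of the 3282 (74.98%) would have. Within a chromosome 215 of 502 osemf2b-alone pairs (42.8%) would have been listed in Dongjin at the same ratio to chance, and 402 (80.1%) at the same share of PETs. For these pairs a contact that Dongjin lacked and a contact below its listing limit cannot be told apart where the limit is not reached.

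Dongjin-alone pairs of 2 members numbered 5010 within and 3640 between chromosomes. At the same ratio to chance, 2400 of the 5010 (47.9%, 46.5 to 49.3) and 1515 of the 3640 (41.6%, 40.01 to 43.2) would have reached the listing limit of osemf2b. Over pairs of members with 1 anchor in each list these shares were 67.6% (65.05 to 70.03) within and 64.0% (61.2 to 66.7) between chromosomes, the second over 1.5 times higher. At the same share of total PETs, 1120 of the 5010 (22.4%) and 68 of the 3640 (1.87%) would have. The pair with the most Dongjin PETs joined 18527869 to 18628123 and 25803300 to 25900199 on chromosome 11, 7.27 Mb apart, by 450 PETs. The limit computed for osemf2b was 94 PETs, but each of these domains had 3 osemf2b anchors, so the pair could be listed with fewer. The first of these domains was also joined to 18408885 to 18416773 by 255 PETs and to 17779715 to 17808225 by 182. Short contacts were among them. On chromosome 6, 26016848 to 26038940 and 26059545 to 26075432, 39.6 kb apart, had 237 PETs in Dongjin, and on chromosome 8, 26825379 to 26834004 and 26835499 to 26850551, 13.3 kb apart, had 234. For both short pairs 2 PETs would have sufficed in osemf2b. The pair of 3518189 to 3561288 and 5537972 to 5674372 on chromosome 1 had 228 Dongjin PETs, but the limit computed from the summed osemf2b tags was 931.

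The 66 shared interchromosomal pairs included 33 between 2 members. At least 1 region was under 5 kb wide in 21 of these 33 (63.6%, 45.1 to 79.6). Over all interchromosomal pairs of members this was 18.8% of 3315 in osemf2b (17.5 to 20.2) and 25.7% of 3673 in Dongjin (24.3 to 27.1). Pairs can share a narrow region, and 3829198 to 3830913 on chromosome 9 was in several of the 33. The pairs are thus not independent, and the intervals are not used to compare these shares. Of the 33, 19 had over 10 times the chance number in both lists. Those with the most osemf2b PETs did not. Chromosome 5 at 22347488 to 22364552 and chromosome 9 at 13903118 to 13991801 had 257 PETs in osemf2b and 15 in Dongjin. Chromosome 6 at 3693410 to 3761633 and chromosome 8 at 20627586 to 20648248 had 185 in osemf2b and 9 in Dongjin. These came to 1.22 and 1.27 times chance in osemf2b and to 0.665 and 0.962 in Dongjin. Chromosome 7 at 1429524 to 1456736 and chromosome 8 at 4493495 to 4495449 had 148 PETs in osemf2b and 76 in Dongjin, at 47.3 times chance in osemf2b and 288 times in Dongjin. Both were also joined to 14254271 to 14255497 on chromosome 5, the chromosome 7 member by 77 PETs in osemf2b and 30 in Dongjin, and the chromosome 8 member by 78 in osemf2b and 11 in Dongjin. Chromosome 2 at 6051769 to 6052514, 0.746 kb wide, and the 6371595 domain on chromosome 5 had 123 PETs in osemf2b and 78 in Dongjin. Chromosome 11 at 18527869 and chromosome 5 at 27989863 to 27997373 had 50 PETs in osemf2b and 309 in Dongjin. These pairs were chosen for display after their values were seen. The 57 members under 2 kb had few partners, a median of 4 in osemf2b and 12 in Dongjin, and their leading partner took a median of 55.0% of their PETs in osemf2b and 40.9% in Dongjin. For the 360 members of 20 kb or more the leading partner took 33.3% in osemf2b and 21.7% in Dongjin.

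The best connected members were wide in both lists. The 19276316 domain of chromosome 12 came first in each, with 94 partners in osemf2b and 228 in Dongjin. Of these, 49 in osemf2b and 56 in Dongjin lay on other chromosomes. It shared 37 partners between the lists, all on chromosome 12, and these held 12327 PETs in osemf2b and 4042 in Dongjin. Its 49 interchromosomal partners in osemf2b, with 3585 PETs, and its 56 in Dongjin, with 428 PETs, had none in common. This was not particular to the domain. Over all members 66 interchromosomal pairs were shared, 0.759% of those in osemf2b and 0.223% of those in Dongjin. Next in osemf2b was 5537972 to 5674372 on chromosome 1, with 75 partners in osemf2b and 184 in Dongjin, 30 of them shared. It carried the most tags of any member in osemf2b, 379798, against 141741 in Dongjin, and 6203 PETs in osemf2b against 9128 in Dongjin. The 2647171 domain of chromosome 7 had 65 partners in osemf2b and 149 in Dongjin. The 6371595 domain of chromosome 5 had 58 in osemf2b and 129 in Dongjin, and the 18219309 domain of that chromosome had 57 in osemf2b and 136 in Dongjin. The last of these sent 68.3% of its PETs to other chromosomes in osemf2b and 26.4% in Dongjin.

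Dongjin hubs on chromosome 11 ranked lower in osemf2b. The member at 25803300 to 25900199 had 40 partners in osemf2b and 193 in Dongjin, which was rank 24 in osemf2b and rank 2 in Dongjin. It held 810 PETs in osemf2b and 6815 in Dongjin while its tags numbered 76576 in osemf2b and 93297 in Dongjin, a scaled ratio of 1.04. The member at 18527869 to 18628123 had 36 partners in osemf2b and 189 in Dongjin, rank 36 in osemf2b and rank 3 in Dongjin. It held 1422 PETs in osemf2b and 15767 in Dongjin, with 27344 tags in osemf2b and 107222 in Dongjin. Chromosome 2 at 17161342 to 17319615, the widest member, had 45 partners in osemf2b and 158 in Dongjin, and its single Dongjin anchor was divided into 6 in osemf2b. Of the 10 leading hubs of each list 4 were the same, of the leading 50 there were 32, and of the leading 100 there were 58. Counting partners of 5 or more PETs, the overlap of the leading 10 was again 4.

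**Figure D5:**
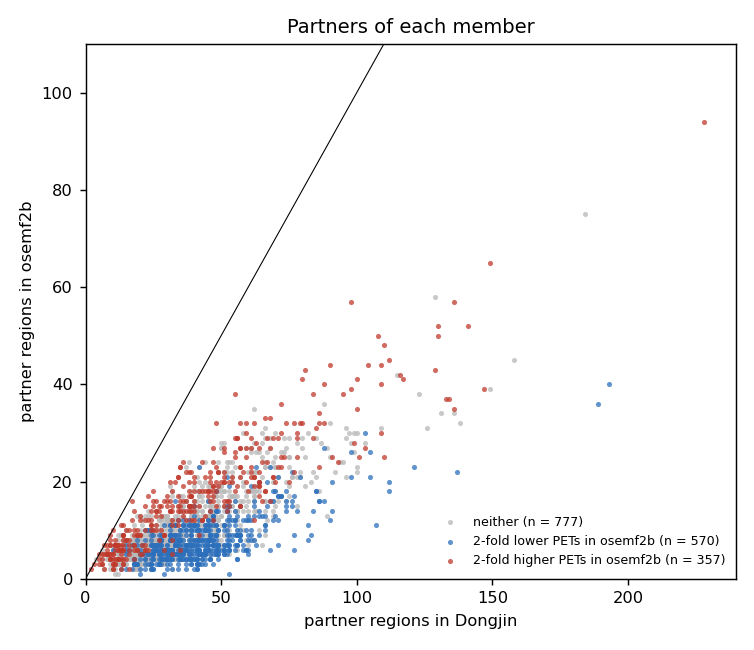
Number of partner regions of each of the 1704 members in osemf2b (vertical axis) against Dongjin (horizontal axis), coloured by whether PETs were at least 2-fold higher or lower in osemf2b. The line marks equal numbers and no member lies above it; the top right point is the chromosome 12 domain with 94 partners in osemf2b and 228 in Dongjin.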

How the data were processed

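The authors deposited 1 list of loops per group, with both replicates pooled and no header. The lists of osemf2b and Dongjin, with 15 columns each, were used, and the other 4 lists of the series were not used here. The PETs of a loop are whole-number counts as deposited, and so are the tags at its anchors. P-values and false discovery rates of the loops, also deposited by the authors, reach 0.0499 for the rate in each list. Which program and build made the loops is not given in the sources used here. Starts were taken as counted from 0, as in BEDPE files, and are printed 1-based.

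Overlapping anchors of both lists were merged, loops were assigned by anchor midpoint, and PETs were summed per region and per pair of regions. Total tags were solved from p-values, read as Poisson probabilities, using 2-PET loops whose anchors each had over 200 tags. The listing limit of a pair is the smallest number of PETs whose Poisson p-value is at most the highest p-value of that list, 0.0012 in osemf2b and 0.00428 in Dongjin. It was computed from tags summed over the anchors of a region, while each listed loop joined single anchors. Regions with several anchors can thus be listed as a pair below it. For example, the chromosome 12 pair of 19276316 and 23978573 was listed in Dongjin at 112 PETs, with a chance number of 120. Shares have exact Clopper-Pearson intervals, counts exact Poisson intervals and medians order-statistic intervals, at 95%. PETs are amplified molecules, and the intervals cover counting error only.

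Named regions and pairs are those with the most osemf2b PETs (6), the highest and lowest ratios (6 each), the most partners in each list (5 each), and the 6 leading pairs of members of each kind. The shared interchromosomal pairs that are named fall outside this rule and were chosen after their values were seen. The members and this rule were chosen with earlier results of these data known. The code was tested on simulated lists. Python 3.11.15, pandas 2.3.3, scipy 1.17.1 and matplotlib 3.10.9 were used.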

Additional observations from a re-analysis of the deposited data

How the results depend on the processing

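With 1 pooled list per group no replicate could be left out. No paired analysis was possible because the lists hold no values of single replicates. Merging anchors up to 1 kb apart left every result computed with it within its interval or within 1.5 times, at 1677 members. Of 62 values under an alternative, 30 stayed within those bounds. The number of members was 2625 at 10 PETs and 985 at 50 PETs in each list, and between 1205 and 1483 with 10 kb bins, loops within chromosomes, loops of at least 3 PETs or a false discovery rate of at most 0.01. The share of Dongjin partners found again, 6.12%, was 8.02% for loops of at least 3 PETs, 11.1% for loops of at least 5, 18.5% with Dongjin loops of at least 6 PETs, 11.8% within chromosomes, 5.18% in 10 kb bins and 11.1% at a false discovery rate of at most 0.01. Chosen after seeing the data, matching within 20 kb gave 14.8%. Pairs listed in osemf2b alone numbered 5025 at 3 PETs, 2100 at 5 PETs, 1541 within chromosomes and 2718 at the stricter rate. The median span of pairs listed in osemf2b alone was 2305 kb at 3 PETs, 1078 kb at 5 PETs, 2093 kb with Dongjin loops of at least 6 PETs, 370 kb in 10 kb bins and 846 kb at the stricter rate. That of Dongjin-alone pairs was 319, 255, 260 and 208 kb at 3 PETs, 5 PETs, 6 Dongjin PETs and the stricter rate, and that of shared pairs was 70.0 kb in 10 kb bins and 68.6 kb at the stricter rate. Members called higher and lower were 58 and 1024 on total tags and 27 and 1164 unscaled. Added after seeing the data, members with 1 anchor in each list gave shares that would reach the listing limit of 31.3% (within chromosomes) and 35.7% (between) for osemf2b-alone pairs, and 67.6% and 64.0% for Dongjin-alone pairs. Dongjin anchor length in place of region width, also added after seeing the data, left the 4 shares by length within their intervals. The causes of the shifts were not tested. No loop of either list had fewer than 2 PETs, so weaker contacts cannot be described.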
